A study of Mus musculus with 9 samples.

Results

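The 5 genes described here encode the subunits of the metabotropic GABA-B receptor and its auxiliary KCTD proteins. They were matched by gene symbol, all 5 of 24624 genes in the table were found, and all 5 passed the filter on low values (a mean of at least 10). *Gabbr1* and *Gabbr2* encode the receptor subunits, and *Kctd12*, *Kctd8* and *Kctd16* encode auxiliary subunits. The set was chosen because *Kctd12* was abundant and lower in the *Fezf2*-/- cortex, so the levels of that comparison are given as a description with no test.

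RNA was measured by polyA-selected bulk RNA-seq of the cerebral cortex at postnatal day 0 (P0), with both hemispheres of 1 mouse in each library. The pups came from crosses of *Fezf2*+/- mice with *Fezf2*+/-; *Fezf2-EnR* mice. There were 3 *Fezf2*+/+ libraries (bc201 and bc202 from litter m1, bc203 from litter m2). The 4 *Fezf2*-/- libraries (bc205 and bc206 from litter m1, bc204 and bc207 from litter m3) lacked functional *Fezf2*, and their null allele carries a human placental alkaline phosphatase (*PLAP*) reporter. The *Fezf2*-/-; *Fezf2-EnR* group had 2 libraries (bc208 from litter m3, bc209 from litter m2) on the same null background. *Fezf2-EnR* is a BAC transgene in which the *Fezf2* regulatory region drives the DNA-binding domain of FEZF2, a zinc-finger transcription factor of deep-layer projection neurons, fused to the repressor domain of engrailed.

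GABA-B receptors are G-protein-coupled receptors for the inhibitory transmitter GABA. GABBR1 binds the ligand, GABBR2 couples to the Gi/o class of G proteins, and the released G-protein beta-gamma subunits open Kir3 potassium channels and inhibit presynaptic calcium channels. KCTD proteins bind the tail of GABBR2 and the beta-gamma subunits. KCTD12 makes the potassium current desensitize quickly, which KCTD8 and KCTD16 do not.

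*Kctd12*, the most abundant gene of the auxiliary group, and *Kctd8*, one of its scarce genes, differed in the sequence before their start sites. The 250 bases upstream of the RefSeq start are printed below, 5′ to 3′ on the gene's strand, in the GRCm38.p6 build. Capitals mark matches on either strand to GGGCGG (GC box; CCGCCC on the other strand), ATGCAAAT (octamer) and TGACGTCA (cyclic AMP response element). The *Kctd12* stretch lies at chr14:102982638-102982887 and the *Kctd8* stretch at chr5:69341710-69341959, both on the minus strand.
Kctd12: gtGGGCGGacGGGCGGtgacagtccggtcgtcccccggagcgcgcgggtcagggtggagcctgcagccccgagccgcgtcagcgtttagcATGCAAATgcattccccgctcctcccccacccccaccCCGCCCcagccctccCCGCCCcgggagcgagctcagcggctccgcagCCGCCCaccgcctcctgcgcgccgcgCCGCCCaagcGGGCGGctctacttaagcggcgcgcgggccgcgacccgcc
Kctd8: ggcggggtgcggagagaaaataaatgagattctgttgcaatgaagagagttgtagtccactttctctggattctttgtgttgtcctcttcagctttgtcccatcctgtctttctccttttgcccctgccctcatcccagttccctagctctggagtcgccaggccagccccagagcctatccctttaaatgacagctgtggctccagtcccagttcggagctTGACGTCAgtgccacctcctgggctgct
The *Kctd12* stretch was 77.6% G or C, with 36 CpG dinucleotides, and that of *Kctd8* was 53.6% with 5. Over all 32851 RefSeq promoter windows the medians were 52.4% and 6 CpG. *Gabbr1* had 66.0% and 16 CpG, and *Gabbr2* had 80.8% and 37 CpG. Windows were matched for 4 of the 5 genes, the exception being *Kctd16*. *Kctd12* held 7 GC boxes and 1 octamer, starting 160 bases before the start site, *Kctd8* held 1 cyclic AMP response element starting 28 bases before it, and *Gabbr1* and *Gabbr2* each held 2 GC boxes. A GC box occurred in 32.7% of all windows, the octamer in 1.6% and the cyclic AMP response element in 1.55%. The TATA box (the letters TATAAA on either strand), which 12.4% of windows held, had no match in the 4 stretches. The motifs were chosen with the *Kctd12* sequence in view, and the matches are a description of letters.

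Compared per kb of the longest annotated transcript, which corrects for gene length, the 5 genes fell into an abundant and a scarce set in every library. In *Fezf2*+/+, *Gabbr1* had 1972 to 2078 normalized counts per kb, *Kctd12* 1189 to 1204, and *Gabbr2* 752 to 778. *Kctd8* had 35 to 41.3 and *Kctd16* 20.5 to 27.0. None of these 5 ranges overlapped with its neighbour. Among 16176 genes ranked by this level in *Fezf2*+/+, *Gabbr1* stood at 504, *Kctd12* at 1101, *Gabbr2* at 1926, *Kctd8* at 11886 and *Kctd16* at 13070.

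The *Fezf2*+/+ order did not hold for every pair of neighbours in the other genotypes. In *Fezf2*-/-, *Kctd12* had 708 to 794 normalized counts per kb and *Gabbr2* had 685 to 908, so that the ranges overlapped. In *Fezf2*-/-; *Fezf2-EnR*, *Kctd12* had 1048 and 1702 against 799 and 635 for *Gabbr2* in the same libraries, and was the higher in both. *Kctd8* and *Kctd16* overlapped in *Fezf2*-/- too (21.2 to 54.8 against 22.4 to 33.3), where *Kctd16* was the higher in bc206 and bc207, and in *Fezf2*-/-; *Fezf2-EnR* (23.7 and 44.9 against 16.2 and 29.1). With the union of all exons as the length, which is longer for *Gabbr1*, the *Gabbr1* level in *Fezf2*-/-; *Fezf2-EnR* was 1171 to 1236 per kb, and the *Kctd12* level of 1702 in bc209 lay above it.

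**Figure D1:**
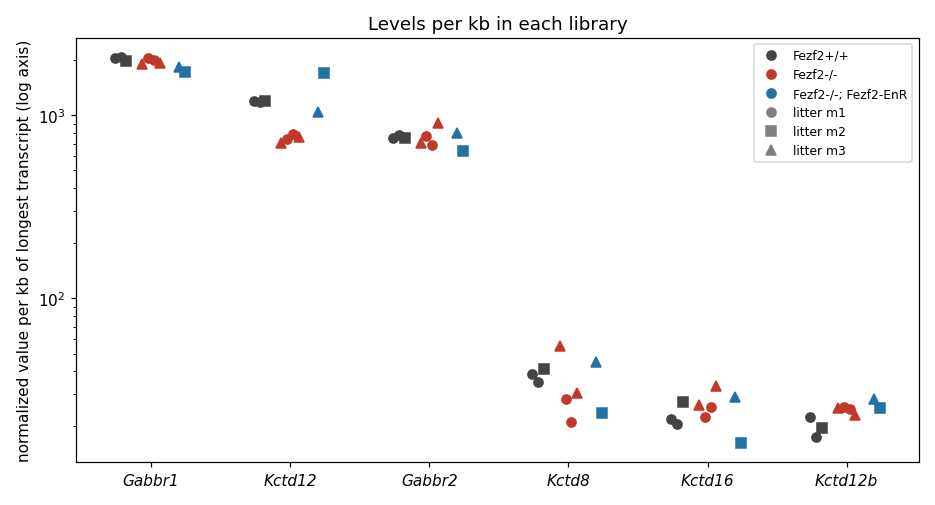
Normalized counts per kb of longest transcript (log axis) for the 5 genes and *Kctd12b*, with 1 point per library, colour for genotype and shape for litter. *Kctd12* is near *Gabbr2* in *Fezf2*-/- (708 to 794) and above it in the other genotypes, and the scarce genes lie between 16.2 and 54.8.

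*Kctd12*, which encodes a desensitizing auxiliary subunit, was lower in the *Fezf2*-/- cortex, the difference on which the set was selected. Its normalized counts were 7292, 7203 and 7268 in *Fezf2*+/+ (bc201 to bc203), 4290, 4476, 4809 and 4626 in *Fezf2*-/- (bc204 to bc207), and 6348 and 10309 in *Fezf2*-/-; *Fezf2-EnR* (bc208 and bc209). The *Fezf2*+/+ libraries were close together, all 4 *Fezf2*-/- libraries lay below every other library, and the 2 libraries with the transgene lay on either side of *Fezf2*+/+. The group means were 7254 ± 46.2 (SD, n = 3), 4551 ± 220 (SD, n = 4) and 8329 ± 2801 (SD, n = 2). *Fezf2*-/- was 1.59-fold lower than *Fezf2*+/+, a log2 difference of -0.67 (SE 0.13) on the log2(value + 1) scale. These are values of whole cortex, in which fewer cells of a type and less RNA per cell cannot be told apart.

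The level of *Kctd12* in *Fezf2*-/-; *Fezf2-EnR* was 1.83 times that in *Fezf2*-/- (log2 difference 0.83, SE 0.14) and 1.15 times that in *Fezf2*+/+ (0.16, SE 0.15), and these values have no test because they share the libraries that chose the gene. The size turned on the 2 transgenic libraries. Without bc208 the log2 difference from *Fezf2*-/- was 1.18 and that from *Fezf2*+/+ was 0.51. Without bc209 they were 0.48 and -0.19, so that the sign of the second one changed. Both transgenic libraries lay above all 4 *Fezf2*-/- libraries.

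Litter differed between the groups, and the differences of *Kctd12* were therefore also taken within litters. In litter m1, with 2 libraries of each genotype, *Fezf2*-/- had 0.641 times the *Fezf2*+/+ level (log2 difference -0.64). In litter m3 the 1 transgenic library had 1.42 times the mean of the 2 *Fezf2*-/- libraries, and in litter m2 the 1 transgenic library had 1.42 times the 1 *Fezf2*+/+ library. With litter as a term in the fit the difference between *Fezf2*-/- and *Fezf2*+/+ was -0.5 and was not called, and nothing is read from the call in either fit. Within *Fezf2*-/-, litter m3 minus litter m1 was -0.06 (SE 0.07, adjusted p = 0.712), a comparison that was not used to choose the gene.

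**Figure D2:**
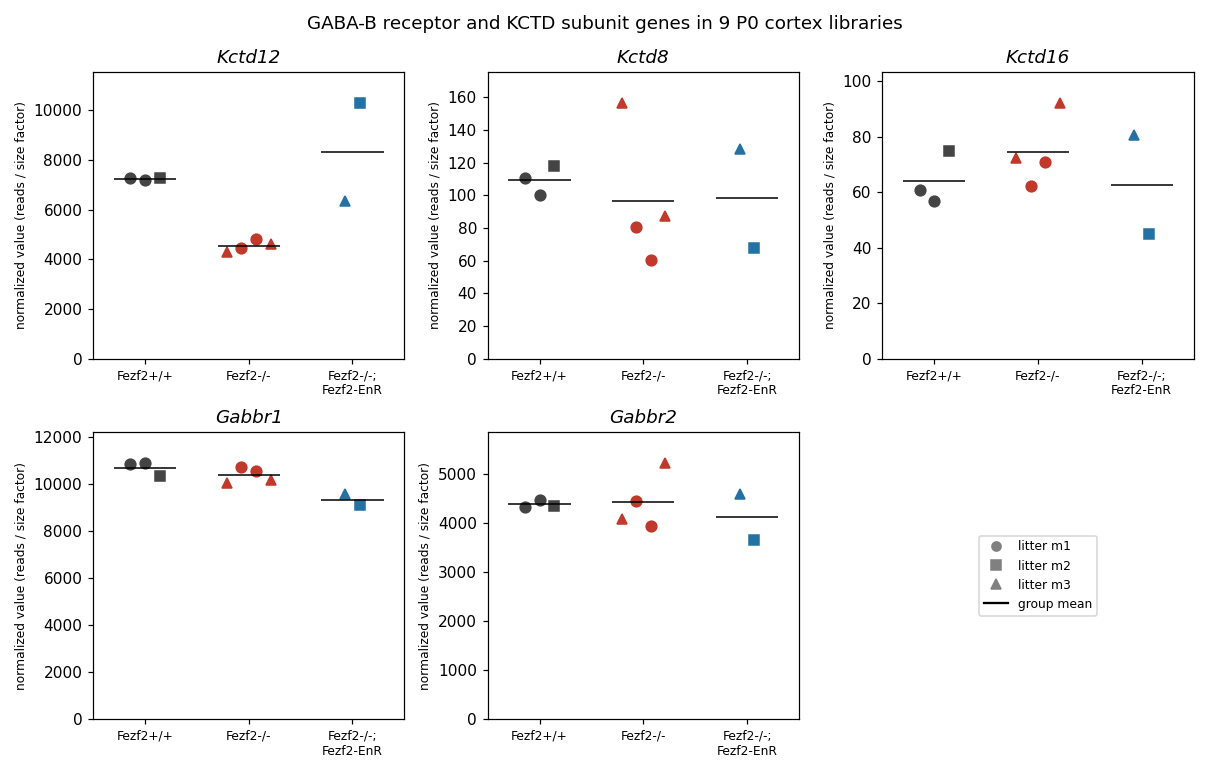
Normalized counts (reads divided by a size factor, axes from 0) of the 5 genes in each library, grouped by genotype, with point shape for litter and a line at the group mean. *Kctd12* separates the 4 *Fezf2*-/- libraries (4290 to 4809) from the other 5, and the values of *Kctd8*, *Kctd16* and *Gabbr2* overlap between all genotypes.

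*Kctd12* is a single-exon gene at chr14:102976581-102982637 on the minus strand (GRCm38). An antisense lincRNA, *Gm26778*, covers 3805 of its 6057 exonic bases (62.8%), and the microRNA gene *Mir5130* covers 84. *Gm26778* had 3.1 to 11.8 normalized counts in the 9 libraries and *Mir5130* 2.0 to 4.2, against 4290 or more for *Kctd12*. Whether strand was used in counting is not given in the sources used here, so reads of *Kctd12* and *Gm26778* cannot be told apart by the table alone. How reads in the overlap were treated is not given either. The *Kctd12* level per kb, its rank, its ratios to *Gabbr1* and *Gabbr2* and its share of the auxiliary genes carry this limit.

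*Kctd8* and *Kctd16*, the scarce auxiliary subunits, varied widely between libraries. *Kctd8* (chr5:69109285-69341679, minus strand) had 110.7, 100 and 118.0 normalized counts in *Fezf2*+/+, 156.7, 80.6, 60.5 and 87.2 in *Fezf2*-/-, and 128.4 and 67.7 in *Fezf2*-/-; *Fezf2-EnR*. Its highest value (bc204) and its lowest (bc206) were both in *Fezf2*-/-, so all groups overlapped. *Kctd16* (chr18:40256962-40531630, plus strand) had 60.8, 56.8 and 74.8 in *Fezf2*+/+, 72.3, 62.1, 70.9 and 92.2 in *Fezf2*-/-, and 80.6 and 44.8 in *Fezf2*-/-; *Fezf2-EnR*. Its groups overlapped too, with the highest value in bc207 and the lowest in bc209. These values rest on 58 to 156 reads per library for *Kctd8* and 41 to 111 for *Kctd16*, against 4108 to 9435 for *Kctd12*.

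The log2 difference of *Fezf2*-/- from *Fezf2*+/+ was -0.27 (SE 0.3) for *Kctd8* and 0.21 (SE 0.22) for *Kctd16*, and both sizes depended on libraries and litter. For *Kctd8* it was -0.53 without bc204, -0.08 without bc206, -0.58 within litter m1 and -0.66 with litter as a term. For *Kctd16* it ran from 0.1 (without bc207) to 0.32 (without bc203) and was -0.02 with litter as a term. *Fezf2*-/-; *Fezf2-EnR* minus *Fezf2*-/- was 0.05 for *Kctd8* (95% interval -0.7 to 0.79, limma adjusted p = 0.963) and -0.29 for *Kctd16* (-0.83 to 0.25, adjusted p = 0.577). *Fezf2*-/-; *Fezf2-EnR* minus *Fezf2*+/+ was -0.23 for *Kctd8* (-1.01 to 0.56, adjusted p = 0.76) and -0.08 for *Kctd16* (-0.65 to 0.49, adjusted p = 0.892). In *Fezf2*-/-, *Kctd8* had 156.7 and 87.2 in litter m3 against 80.6 and 60.5 in litter m1, a log2 difference of 0.74 (95% interval 0.13 to 1.34) that did not pass the test over all genes (unadjusted p = 0.0222, limma adjusted p = 0.202). It was 0.32 without bc204 and 1.15 without bc207.

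*Kctd12b*, an X-linked paralog of *Kctd12* and the remaining gene of the auxiliary group, is not one of the 5 genes and had 17.6 to 28.3 normalized counts per kb. Its normalized counts were 109.8, 85.2 and 94.8 in *Fezf2*+/+, 122.5, 123.1, 120.9 and 112.1 in *Fezf2*-/-, and 137.4 and 122.4 in *Fezf2*-/-; *Fezf2-EnR*. All *Fezf2*+/+ values lay below the others. The log2 difference of *Fezf2*-/- from *Fezf2*+/+ was 0.31 (SE 0.12, limma adjusted p = 0.372), and that of *Fezf2*-/-; *Fezf2-EnR* was 0.43 (SE 0.14, adjusted p = 0.169). *Kctd12* made up 93.2 to 94.2% of the summed per-kb level of the 4 auxiliary genes in *Fezf2*+/+, 87.0 to 91.7% in *Fezf2*-/-, and 91.1 and 96.3% in *Fezf2*-/-; *Fezf2-EnR*.

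*Gabbr1*, which encodes the ligand-binding subunit (chr17:37045966-37075067, plus strand), had nearly the same level in *Fezf2*+/+ and *Fezf2*-/- and a slightly lower one with the transgene. Its normalized counts were 10841, 10906 and 10349 in *Fezf2*+/+, 10046, 10736, 10552 and 10193 in *Fezf2*-/-, and 9596 and 9091 in *Fezf2*-/-; *Fezf2-EnR*. The 2 transgenic libraries were the lowest of the 9, and the other groups overlapped. *Fezf2*-/- minus *Fezf2*+/+ was -0.04 (SE 0.05) on the log2 scale. *Fezf2*-/-; *Fezf2-EnR* minus *Fezf2*-/- was -0.15 (95% interval -0.28 to -0.03, unadjusted p = 0.021, limma adjusted p = 0.222), and minus *Fezf2*+/+ it was -0.2 (-0.33 to -0.06, unadjusted p = 0.00741, adjusted p = 0.151). DESeq2 on recovered reads called 641 of all 16197 genes in this comparison. For *Gabbr1* it gave the same difference of -0.2 from *Fezf2*+/+ with an adjusted p of 0.041, so this call depended on the tool. Within litters it was -0.08 in m3 (1 transgenic library against 2 *Fezf2*-/-) and -0.19 in m2 (1 against 1 *Fezf2*+/+).

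*Gabbr2*, which encodes the subunit that couples to G proteins and carries the KCTD binding site (chr4:46662305-46991873, minus strand), overlapped between all genotypes. Its normalized counts were 4321, 4474 and 4341 in *Fezf2*+/+, 4077, 4445, 3940 and 5224 in *Fezf2*-/-, and 4597 and 3652 in *Fezf2*-/-; *Fezf2-EnR*. The highest value (bc207) and the lowest (bc209) lay in different mutant groups, and the *Fezf2*+/+ values lay between them. *Fezf2*-/- minus *Fezf2*+/+ was 0.01 (SE 0.1). *Fezf2*-/-; *Fezf2-EnR* minus *Fezf2*-/- was -0.1 (95% interval -0.36 to 0.16, limma adjusted p = 0.697), and minus *Fezf2*+/+ it was -0.1 (-0.37 to 0.17, adjusted p = 0.7).

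The balance of auxiliary to receptor RNA followed *Kctd12*. Per kb, the ratio of *Kctd12* to *Gabbr1* was 0.572 to 0.608 in *Fezf2*+/+, 0.361 to 0.395 in *Fezf2*-/-, and 0.573 and 0.983 in *Fezf2*-/-; *Fezf2-EnR*. The ratio of *Kctd12* to *Gabbr2* was 1.53 to 1.6, then 0.841 to 1.16, then 1.31 and 2.68. The *Fezf2*-/- libraries had the lowest values of both ratios, which hold the same *Kctd12* values as above. The ratio of *Gabbr1* to *Gabbr2*, in which *Kctd12* has no part, ran from 2.61 to 2.75 in *Fezf2*+/+ and from 2.14 to 2.93 over all 9 libraries.

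Over the whole table, 139 of 16197 genes tested (0.858%) were called between *Fezf2*-/- and *Fezf2*+/+ at a limma adjusted p under 0.05, and 13% of genes had groups that did not overlap. *Kctd12* was the 1 of the 5 genes in either count, from which nothing is read because it was chosen by this comparison. Leaving out any 1 of the 7 *Fezf2*+/+ or *Fezf2*-/- libraries ended its call, while its difference stayed between -0.7 and -0.65. Between *Fezf2*-/-; *Fezf2-EnR* and *Fezf2*-/-, 0.766% of genes were called and 24.6% did not overlap. Of the 4 genes other than *Kctd12*, limma, edgeR and DESeq2 each called 0, 1 (*Gabbr1*) had an unadjusted p under 0.05 (16.9% of all genes did), and the same 1 did not overlap.

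Between *Fezf2*-/-; *Fezf2-EnR* and *Fezf2*+/+, 0.117% of genes were called and 34.6% did not overlap. Here limma and edgeR called 0 of the 4 genes, and 1 had an unadjusted p under 0.05 by limma (19.3% of all genes did). DESeq2 called 1 (*Gabbr1*), beside 641 of all 16197 genes, and gave no adjusted p for 2 (*Kctd8* and *Kctd16*). *Gabbr1* was also the 1 gene of the 5 without overlap. Between litters m3 and m1 within *Fezf2*-/-, 1.43% of genes were called, 0 of the 5 genes were called by any of the 3 tools, and 1 (*Kctd8*) had an unadjusted p under 0.05 (17.4% of all genes did). The 3 genotype comparisons share libraries with each other.

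**Figure D3:**
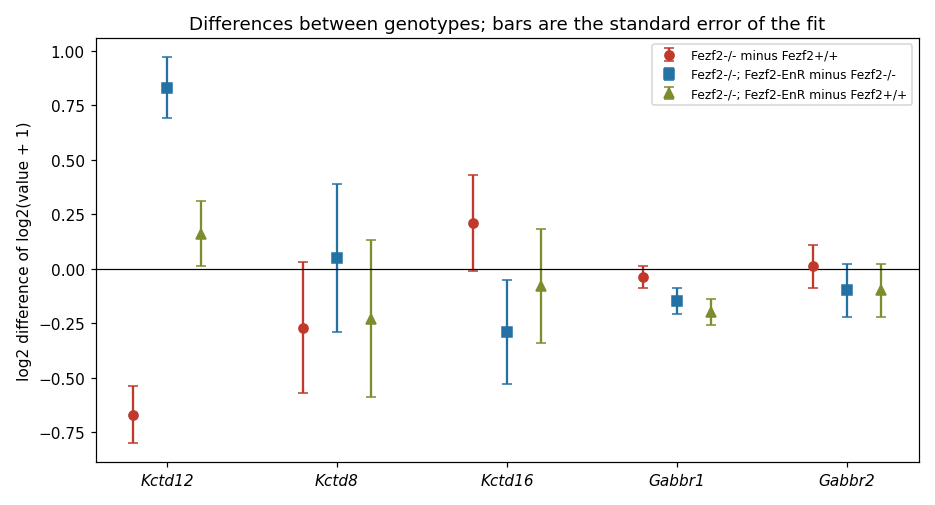
Log2 difference of each of the 5 genes in the 3 genotype comparisons, with bars for the standard error of the limma fit. *Kctd12* is at -0.67 in *Fezf2*-/- minus *Fezf2*+/+ (the comparison it was selected on) and at 0.83 in *Fezf2*-/-; *Fezf2-EnR* minus *Fezf2*-/-, and *Gabbr1* has the shortest bars.

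The downstream effectors of the receptor were followed as a list of 29 genes, all of them tested. Between *Fezf2*-/- and *Fezf2*+/+, 1 was called higher and 1 lower (0.858% of all genes were called). The list's median log2 difference was 0.02, beside 0.0 over all genes. *Gnb4*, a G-protein beta subunit, rose from 2992, 3126 and 3184 normalized counts in *Fezf2*+/+ to 4202, 4414, 4578 and 4691 in *Fezf2*-/- (log2 difference 0.53, SE 0.06, limma adjusted p = 0.00193). *Adcy1*, a calcium-stimulated adenylyl cyclase, fell from 25327, 26226 and 27577 to 20134, 19949, 21726 and 22466 (-0.33, SE 0.06, adjusted p = 0.0288), a call that was lost in 6 of the 9 fits without 1 library (-0.36 to -0.29 over all 9), with litter as a block and in litter m1 alone. Neither gene's *Fezf2*-/- range overlapped with *Fezf2*+/+. *Gng4*, a G-protein gamma subunit, had 1177 to 1313 in *Fezf2*+/+ and 2088 to 2517 in *Fezf2*-/- (0.86, SE 0.18), which did not pass the limma test (adjusted p = 0.0628) and was called in 4 of 11 alternatives, DESeq2 among them, and without bc208 or bc209.

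With the transgene, 2 effector genes were called lower than in *Fezf2*-/- and 0 higher (0.766% of all genes were called), with a list median of -0.09. *Gnb4* was 2587 and 2309 in bc208 and bc209, below all 7 other libraries (log2 difference from *Fezf2*-/- -0.87, SE 0.07, limma adjusted p = 0.000165). *Gng4* was 1283 and 651.2 (-1.3, SE 0.2, adjusted p = 0.0197), which ran from -1.79 (without bc208) to -0.82 (without bc209) and was not called without bc206 or with only the 2 groups fitted. Both genes therefore moved in the opposite direction to *Kctd12* in this comparison. The Kir3 channel subunit *Kcnj9* had a log2 difference of -1.06 (SE 0.27, adjusted p = 0.12), and the Kir3 genes *Kcnj3*, *Kcnj5* and *Kcnj6* had 0.13, 0.19 and -0.39, with adjusted p of 0.636, 0.705 and 0.282. *Gnao1*, the main neuronal Gi/o alpha subunit gene, was at 0.1 in *Fezf2*-/- minus *Fezf2*+/+ and at -0.06 here. Against *Fezf2*+/+, limma and edgeR called 0 of the 29 in the transgenic libraries, and 7 had an unadjusted p under 0.05, beside 19.3% of all genes. DESeq2 called 1 (*Gnb4*), beside 641 of all 16197 genes.

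Proteins that associate with the receptor (9 genes, among them *App*, *Ajap1*, *Pianp* and *Nsf*) had 0 calls by limma and edgeR between *Fezf2*-/- and *Fezf2*+/+. DESeq2 called 2 of them (315 of all 16197 genes), 4 had an unadjusted p under 0.05 (10.8% of all genes did), and the median was -0.01. *Ywhaz*, the 14-3-3 zeta gene and the most abundant of them, had a log2 difference of -0.01 (SE 0.04). Of the wider KCTD family, 18 of 20 genes were tested, with 0 called in this comparison by limma, edgeR or DESeq2, 2 at an unadjusted p under 0.05 (beside the same 10.8% of all genes), and a median of -0.02. Their differences ran from -0.42 (*Kctd4*) to 0.33 (*Kctd9*). *Kctd20*, the most abundant, was at -0.04 (SE 0.06).

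The 6 genes of GABA synthesis, release and uptake had higher values in *Fezf2*-/-, but none was called by limma. Their log2 differences ran from 0.36 (*Slc6a11*, a GABA transporter of astrocytes) to 0.71 (*Gad1*, a GABA-synthesizing enzyme), with a median of 0.57. All 6 had an unadjusted p under 0.05 (10.8% of all genes did), edgeR called 0 and DESeq2 called 4 (315 of all 16197 genes). *Abat*, the GABA-degrading transaminase, had the smallest limma adjusted p (0.57, SE 0.12, adjusted p = 0.0586). With the transgene the median difference from *Fezf2*-/- was -0.53. Here limma and edgeR called 0, DESeq2 called 1 (454 of all 16197 genes), and 4 had an unadjusted p under 0.05 (16.9% of all genes did).

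**Figure D4:**
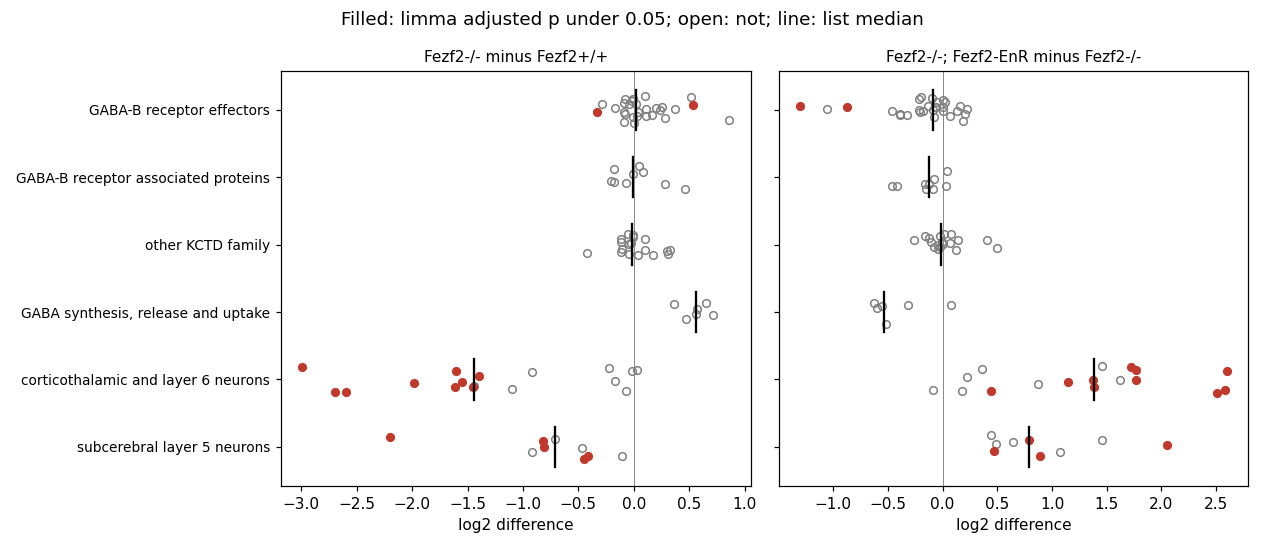
Log2 differences of the genes in 6 lists, in *Fezf2*-/- minus *Fezf2*+/+ (left) and in *Fezf2*-/-; *Fezf2-EnR* minus *Fezf2*-/- (right), with filled points for genes at a limma adjusted p under 0.05 and a line at the list median. The medians of the receptor's effectors, its associated proteins and the KCTD family lie within 0.12 of 0, and those of the corticothalamic list are -1.44 and 1.38. All lists were chosen with earlier results of these data known.

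*Kctd12* shared its pattern across libraries with genes outside the pathway. Over the 9 libraries, the 5 genes with the highest Pearson r to *Kctd12* in log2(value + 1) were *Bhlhe22* (r = 0.982), *Ssbp2* (0.975), *Armc10* (0.972), *Ruvbl1* (0.969) and *Osbpl9* (0.967), out of 12962 genes with a mean of at least 50. All 5 had their lowest values in *Fezf2*-/- and their highest in bc209. *Bhlhe22*, which encodes a basic helix-loop-helix factor of subcerebral neurons, had 7090, 7540 and 7679 in *Fezf2*+/+, 4974, 5480, 5681 and 5597 in *Fezf2*-/-, and 6664 and 8744 with the transgene. An r of at least 0.9 was reached by 64 genes and one of at most -0.9 by 92. Ranked by Spearman's rho instead, 0 of these 5 were among the top 5. The libraries share genotype and normalization, so these coefficients describe likeness over 9 points.

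**Figure D5:**
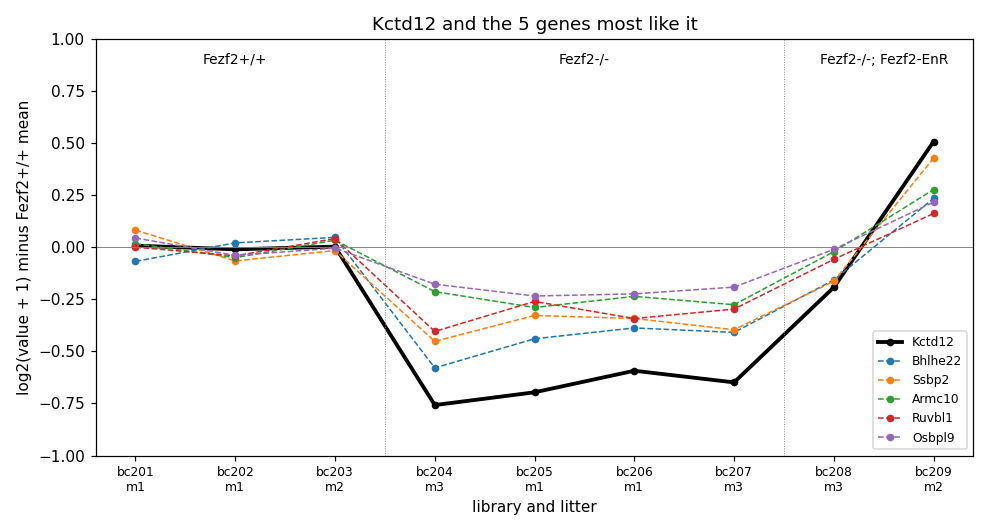
Log2(value + 1) of *Kctd12* and of the 5 genes with the highest Pearson r to it (0.967 to 0.982), as the difference from the *Fezf2*+/+ mean, in each library with its litter. All 6 lines are lowest in the 4 *Fezf2*-/- libraries and highest in bc209, and *Kctd12* has the widest range.

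Among the 5 genes themselves the pairs were fixed by the set and not picked by their r, so their coefficients are not set against those above. The largest coefficients over the 9 libraries were 0.71 between *Kctd16* and *Gabbr2* and -0.65 between *Kctd12* and *Kctd16*. *Gabbr1* and *Gabbr2* had an r of 0.35.

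Other measures differed between the genotypes beside *Kctd12*. Normalized counts at *Fezf2*, the check of the labels, were 979.1 to 1232 in *Fezf2*+/+, 192.9 to 241.9 in *Fezf2*-/-, and 907.0 and 1001 in the transgenic libraries. The transgene holds part of *Fezf2* and these last libraries are on the null background, so their counts cannot be read as the intact gene. Of 17 corticothalamic and layer 6 genes, 9 were called lower in *Fezf2*-/- than in *Fezf2*+/+ and 10 higher with the transgene than in *Fezf2*-/-, and their summed values were 33051 to 33842, 23757 to 25949, and 33608 and 38038. Of 9 subcerebral layer 5 genes, 5 were called lower and 4 higher in the same comparisons, with sums of 20079 to 20602, 13613 to 16081, and 21480 and 22922. Over all genes, 0.858% and 0.766% were called in these 2 comparisons. Both lists were chosen with earlier results of these data known, so nothing is read from the number of their calls. The lists of other cell types had few limma calls. *Gad1*, *Gad2* and *Slc32a1* are in both the interneuron list and the list of GABA synthesis, release and uptake, so these lists are not separate observations. The 13 interneuron genes had a median difference of 0.47 in *Fezf2*-/- minus *Fezf2*+/+ (0.0 over all genes), and all 13 were positive. Their sums were 10541 to 11250, 14073 to 14986, and 10748 and 12142. Of these 13, limma and edgeR called 0, DESeq2 called 6 (315 of all 16197 genes), and 11 had an unadjusted p under 0.05 (10.8% of all genes did). The 14 microglial genes, of which limma, edgeR and DESeq2 called 0 and 3 had an unadjusted p under 0.05, summed to 1894 to 2052, 2058 to 2225, and 2204 and 2296. In the same comparison all 10 striatal genes (median 0.6), all 7 thalamic genes tested (0.26), all 6 genes of oligodendrocyte precursors (0.24) and 12 of 13 radial glia and astrocyte genes (0.21) were positive. Of these, limma called 1, *Slc17a6* of the thalamic list (0.59, SE 0.11, adjusted p = 0.0367). *Slc17a6* had the highest mean of that list (904) and weighs most in its sum, and whether its RNA came from thalamic cells was not tested. The sums of *Fezf2*+/+ and *Fezf2*-/- did not overlap for thalamic genes (1846 to 1939 against 2267 to 2851), oligodendrocyte precursors (5570 to 5919 against 6523 to 6948) and radial glia and astrocytes (19027 to 21005 against 21040 to 24397), and overlapped for striatal genes (6034 to 7077 against 5982 to 8802). Between litters m3 and m1 within *Fezf2*-/-, the striatal list had a larger median of 0.96, with 9 of 10 genes positive. The thalamic, oligodendrocyte precursor and radial glia lists had medians of 0.18, 0.05 and 0.07 there. No list of these had a gene at 0 in every library, and the part of these genes in the *Kctd12* difference was not tested.

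The sex of the pups also differed between groups. *Xist*, expressed from the inactive X chromosome, was 10771 in bc201, 12203 in bc208 and 7895 in bc209, and at most 58.9 in the remaining libraries. All 4 *Fezf2*-/- libraries had the Y-linked *Ddx3y* (1211 to 1600), and both transgenic libraries were listed at 0. Sex and transgene therefore cannot be told apart between these groups. Within *Fezf2*+/+, *Kctd12* was 7292 in the library with *Xist* and 7203 and 7268 in those with *Ddx3y*.

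The libraries held 18716575 to 25127623 reads, recovered from the steps of the values, and depth was therefore similar across libraries. Each library is 1 mouse, and comparisons with the transgenic group rest on 2 mice from different litters.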

How the data were processed

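The authors aligned paired-end reads to mm10, counted reads per gene and divided each library's counts by a size factor. The submitters' processing notes name Bowtie, STAR and DESeq. The counting tool, the annotation release and the use of strand are not given in the sources used here. The deposited table is thus a normalized signal (counts per size factor), and sums per library ran from 20097781 to 21058156. Whole reads were recovered from the steps of the values, since 100% of values between 40 and 400 reads came out whole within 0.1 read in all 9 libraries. These totals ran from 18716575 to 25127623 reads.

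log2(value + 1) was tested with limma 3.58.1 (trend) in R 4.3.3, with 1 coefficient per genotype and all 9 libraries, for 16197 genes with a mean of at least 10, and p-values were Benjamini-Hochberg adjusted over all of them. The litter comparison had 1 coefficient per genotype and litter. All tests were two-sided. edgeR 4.0.16 called 142, 114, 15 and 241 genes on recovered reads and DESeq2 1.42.0 called 315, 454, 641 and 216, for *Fezf2*-/- minus *Fezf2*+/+, *Fezf2*-/-; *Fezf2-EnR* minus *Fezf2*-/-, *Fezf2*-/-; *Fezf2-EnR* minus *Fezf2*+/+, and litter m3 minus m1. The 5 genes and all gene lists were chosen with earlier results of these data known. Other genes named are those whose exons overlap the 5, *Kctd12b*, *Fezf2*, called genes of the lists (up to 4 each, by size of difference) or otherwise the most abundant one, and the 5 most like *Kctd12*. *Gng4*, *Kcnj* genes, *Gnao1*, *Abat*, *Gad1*, *Kctd4* and *Kctd9* were named after their values were seen. *Gad2* and *Slc32a1* were named because the GABA and interneuron lists share them. Gene positions and lengths came from GENCODE M21 (GRCm38), which matched 24595 of 24624 identifiers, and promoter sequences from RefSeq (GRCm38.p6). The fit was checked on simulated data. Other pseudocounts, filters, scalings, litter terms and tools were tried, and each library was left out in turn.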

Additional observations from a re-analysis of the deposited data

How the results depend on the processing

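Of 375 values of the 5 genes under alternatives, 10 were counted as turned in sign and 4, all of *Kctd12*, as moved by more than the residual spread. A move was counted only for values with no test. A turn was counted for values with a test and, where there was none, only for differences called in the main fit. The *Kctd16* difference of *Fezf2*-/- from *Fezf2*+/+ was 0.21, and its turn to -0.02 with litter as a term was thus left out of the count. Without 1 library, the limma call of *Kctd12* was lost in 7 of 9 fits of *Fezf2*-/- minus *Fezf2*+/+. The same held for 7 of 9 fits of *Fezf2*-/-; *Fezf2-EnR* minus *Fezf2*-/-. Nothing is read from these calls or their loss, because the gene was chosen with these libraries known. DESeq2 on recovered reads called *Gabbr1* in *Fezf2*-/-; *Fezf2-EnR* minus *Fezf2*+/+ (-0.2, adjusted p = 0.041), as it did 641 of all 16197 genes, and the cause was not tested.

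Leaving out each library in turn gave *Kctd12* 0.48 to 1.18 for *Fezf2*-/-; *Fezf2-EnR* minus *Fezf2*-/- and -0.19 to 0.51 for minus *Fezf2*+/+. In these 2 comparisons *Kctd8* ran from -0.41 to 0.5 and from -0.68 to 0.23, *Kctd16* from -0.7 to 0.13 and from -0.5 to 0.34, and *Gabbr2* from -0.27 to 0.06 and from -0.26 to 0.07. In *Fezf2*-/- minus *Fezf2*+/+ *Kctd8* ran from -0.53 to -0.08, *Kctd16* from 0.1 to 0.32 and *Gabbr2* from -0.08 to 0.06. Between litters they ran from 0.32 to 1.15, from 0.12 to 0.47 and from -0.04 to 0.32. The effector gene *Gng4* ran from -0.93 to 0.05 in *Fezf2*-/-; *Fezf2-EnR* minus *Fezf2*+/+. Where 1 transgenic library remained, it was assumed to vary like the other groups.

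Genes called in *Fezf2*-/- minus *Fezf2*+/+ (139) numbered 221 with only the 2 groups compared, 233 in litter m1 alone, 315 by DESeq2 and 66 to 218 without 1 library. In *Fezf2*-/-; *Fezf2-EnR* minus *Fezf2*-/- (124) they numbered 67 with only the 2 groups, 454 by DESeq2, and 21 (without bc209) to 1085 (without bc208). In *Fezf2*-/-; *Fezf2-EnR* minus *Fezf2*+/+ (19) they numbered 10 at a mean of at least 50, 12 with only the 2 groups, 32 with litter as a block, 641 by DESeq2, and 8 (without bc209) to 492 (without bc208). Between litters (231) they numbered 22 with no filter and 55 to 313 without 1 library. *Kctd8* and *Kctd16* had the fewest reads (41 to 156 per library). The groups share litters but no replicate numbers, so litter as a block was the paired fit. Under it, leaving aside *Kctd12*, which has no test there, no gene of the 5 was called in a comparison with the transgene.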
